A study of Mus musculus with 16 samples.

Results

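The clustered protocadherin genes are 57 protein-coding genes on mouse chromosome 18 whose symbols begin with Pcdha, Pcdhb or Pcdhg, of 21883 protein-coding genes in the gene table. The alpha subcluster holds 14 genes, the beta subcluster 22 and the gamma subcluster 21. All accessible regions (peaks) were taken from the first to the last of these genes with 50 kb added on each side, a window of 1011.59 kb at 36880285 to 37891873 of chromosome 18 (mm10), in all 16 deposited peak lists. Merging overlapping peaks over the 16 lists gave 111 regions in this window, of 163173 in all.

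Chromatin accessibility was measured by ATAC-seq, in which a transposase cuts open DNA, in mouse embryonic stem cells (ESCs) that carry a GFP knock-in at the Rx locus, an eye-field gene, and in embryoid bodies made from them. There were 8 groups of 2 libraries. The ESCs, all kept in 2i and LIF, were the parental Rx:GFP line, p53 knockout clones C9 and H9, and cells lacking both Wdr5 and p53 (DKO) that stably carried a backbone plasmid, a wild-type WDR5 plasmid (WDR5WT) or a plasmid for the mutant WDR5S91K-Y191F. The embryoid bodies, differentiated by the SFEBq method with Matrigel, were parental cells at day 4 and Wdr5 and p53 DKO cells, for which the labels give no day. Every group thus carries the Rx:GFP allele, the groups with a plasmid carry the loss of p53 as well as that of Wdr5, and each p53 knockout group is 1 clone. WDR5 is a scaffold subunit of the histone H3 lysine 4 methyltransferase complexes.

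Clustered protocadherins are cell-surface adhesion proteins by which a neuron tells its own branches from those of other neurons. Each alpha and gamma gene supplies a variable exon with its own promoter, which is spliced to constant exons shared by its subcluster, while each beta gene is a single exon. In neurons the alternate genes are switched on in changing combinations through contacts, made by CTCF and cohesin, between promoters and distant enhancers, whereas the C-type genes (Pcdhac1, Pcdhac2, Pcdhgc3, Pcdhgc4 and Pcdhgc5) are expressed more uniformly. All 3 subclusters are read from lower to higher coordinates, so the lower end is called the start here.

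The 12 ESC lists held 1535 to 32709 peaks and the 4 embryoid body lists 75673 to 93646. Read depth is unknown. The ESC lists gave a signal of unstated scaling that was never under 200, and the embryoid body lists gave a fold enrichment, so values were set against each other only within a list; both are the authors' values. The lists of 4 libraries stood apart by their length: the backbone lists held 1535 and 2492 peaks, the first WDR5S91K-Y191F list 5174 and the second parental ESC list 5330, while the second WDR5S91K-Y191F list with 16257 lay between these and the 24367 to 32709 peaks of the other 7 ESC lists. The widest peak was 18810 to 29214 bp in the parental, backbone and WDR5S91K-Y191F ESC lists and 7727 to 15921 bp in the C9, H9 and WDR5WT lists, so genotype and kind of list cannot be told apart across these sets. Cell type markers were checked by a peak within 1000 bp of either end. In all 6 C9, H9 and WDR5WT lists 5 of 8 naive pluripotency, 3 of 8 neuroectoderm and eye-field, and 5 of 6 neuron markers had one (38.1% of all genes). In both parental embryoid body lists 8 of 8, 8 of 8 and 6 of 6 had one (63.8%), and in both DKO lists 6, 6 and 5 (62.8%). Of 4 mesoderm and 4 endoderm markers, 1 and 2 had one in all 6 of those ESC lists. In both parental embryoid body lists 4 and 2 had one, and in both DKO lists also 4 and 2. Six3, a forebrain and eye-field gene, and Esrrb, a naive pluripotency gene, were found in both parental and neither DKO embryoid body list. Of all genes, 0.818% had that pattern. No other marker was found in both lists of either embryoid body group and in neither list of the other. No gene expression was measured.

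The protocadherin window held 59 to 86 peaks in the embryoid body lists, 17 to 23 in the C9, H9 and WDR5WT ESC lists and 0 to 9 in the other ESC lists. It held no peak in both backbone lists, in the first WDR5S91K-Y191F list and in the second parental list. The second WDR5S91K-Y191F list held 3 peaks and the first parental list 9. The C9 lists held 18 and 17 peaks, the H9 lists 17 and 19, and the WDR5WT lists 18 and 23. In embryoid bodies the parental lists held 78 and 59 peaks and the DKO lists 76 and 86. The lists differ in length, and as a share of the list, the 6 C9, H9 and WDR5WT lists had 0.0535% to 0.0703% of their peaks in the window and the 4 embryoid body lists 0.0780% to 0.0973%. Of 5350 windows of the same length across the genome, 76.7% to 90.9% held fewer peaks than the protocadherin window in those 6 ESC lists, whose median window held 9 to 11. The figure was 54.4% in the first parental list and 24.9% in the second WDR5S91K-Y191F list. In embryoid bodies the figure was 97.1% and 93.7% in the parental lists and 99.1% and 99.5% in the DKO lists. The median peak of a list was 343 to 364 bp wide in embryoid bodies and 579 to 668 bp in ESCs. Cell state and kind of list therefore cannot be told apart between ESC and embryoid body lists.

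**Figure D1:**
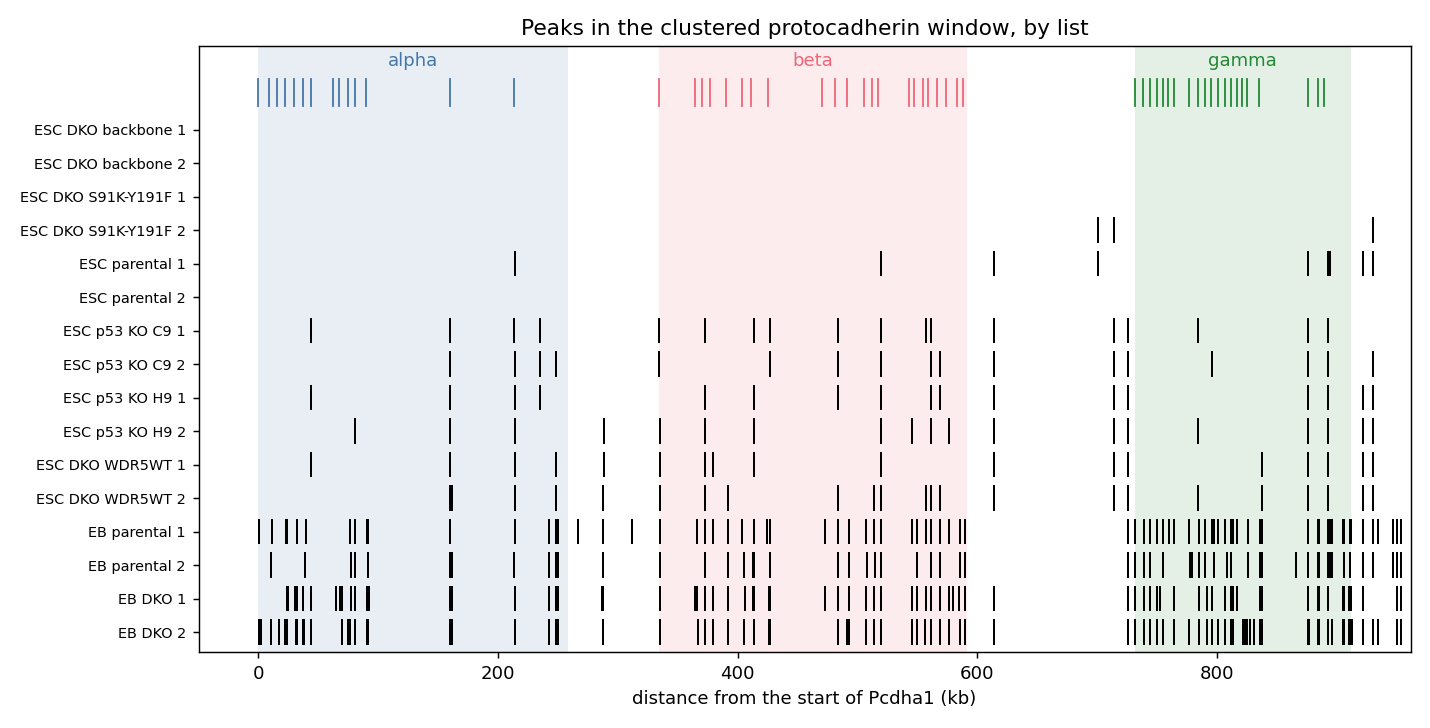
Each row is 1 of the 16 peak lists and each mark a peak, plotted by distance in kb from the start of the first alpha gene, with the alpha, beta and gamma subclusters shaded and gene starts ticked at the top. The embryoid body rows are filled across all 3 subclusters (59 to 86 peaks), the C9, H9 and WDR5WT rows hold 17 to 23 peaks, and 4 ESC rows are empty.

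**Figure D2:**
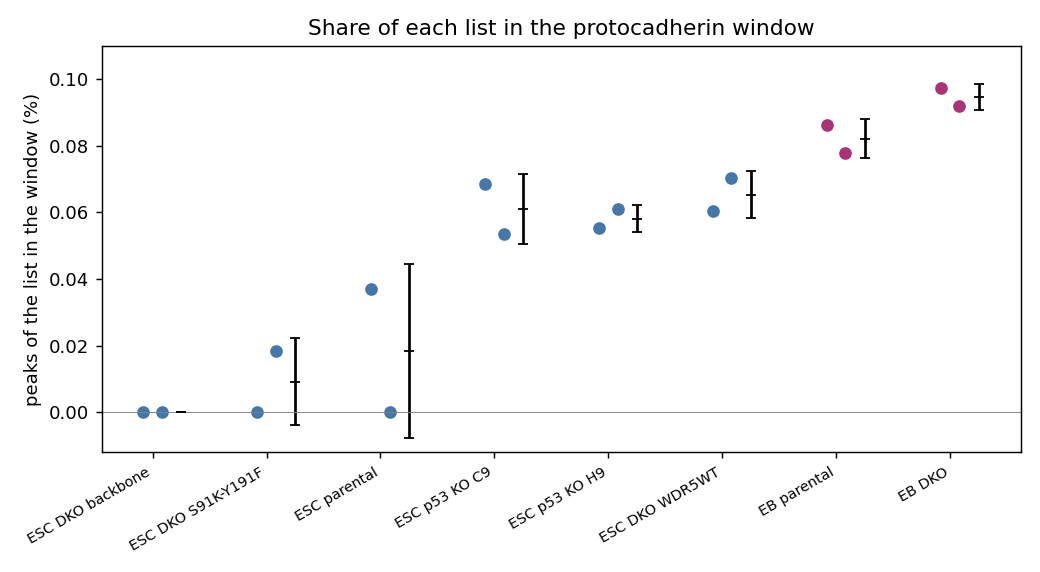
Percent of a list's peaks that lie in the protocadherin window, on the vertical axis, for the 8 groups; points are libraries, and the tick and error bar beside them are the mean and SD of 2 libraries. The 4 embryoid body libraries sit between 0.0780% and 0.0973%, above all 12 ESC libraries. Cell state and kind of list differ together between them.

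Of the 111 regions, 108 had a peak in at least 1 embryoid body list and 40 had one in all 4. At least 1 ESC list had a peak in 34 of them, 31 regions were shared by ESC and embryoid body lists, and 77 were found in embryoid body lists only. The embryoid body lists were longer throughout. Over the genome, those 4 lists merged alone gave 149618 regions, and all 16 lists gave 163173. The genome-wide share of regions in embryoid body lists only was not counted, nor was one for the subcluster counts that follow. The subclusters were filled unequally in the 2 kinds of list. The beta subcluster held 29 regions, 29 of them in an embryoid body list and 14 in an ESC list. The gamma subcluster held 37 regions, 37 of them in an embryoid body list and 6 in an ESC list. For the alpha subcluster the counts were 31 regions, with 30 and 7. Of the 40 regions found in all 4 embryoid body lists, 21 had a peak in any ESC list, where 60.3% of all such regions of the genome did, and 6 had one in all 6 C9, H9 and WDR5WT lists, against 31.8% genome-wide. In the other direction, 6 of the 8 regions found in all 6 of those ESC lists were in all 4 embryoid body lists, near the 77.1% of the genome.

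Peaks at single genes were counted at the end that no other protocadherin gene shares, since the alpha and the gamma genes of a subcluster end on common exons. In embryoid bodies 36 and 21 of the 57 genes had a peak within 1000 bp of such an end in the parental lists, and 32 and 37 in the DKO lists. In the C9 lists 10 and 8 genes had one, in the H9 lists 6 and 8, and in the WDR5WT lists 6 and 8. The first parental ESC list had 3, and the other 5 ESC lists had none. Over all protein-coding genes, counting either end, the share with a peak in both libraries was 63.8% in parental and 62.8% in DKO embryoid bodies, 39.9% in C9, 45.1% in H9, 48.3% in WDR5WT, 12.3% in parental ESCs, 12.9% in WDR5S91K-Y191F and 1.18% in backbone cells. All 4 embryoid body lists shared such a peak at 17 of the 57 genes, where 61.2% of all protein-coding genes of the genome had a peak within 1000 bp of an end in all 4. All 6 C9, H9 and WDR5WT lists shared one at 4 genes, Pcdhac1, Pcdhac2, Pcdhb14 and Pcdhgc3, against 38.1% of all genes.

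**Figure D3:**
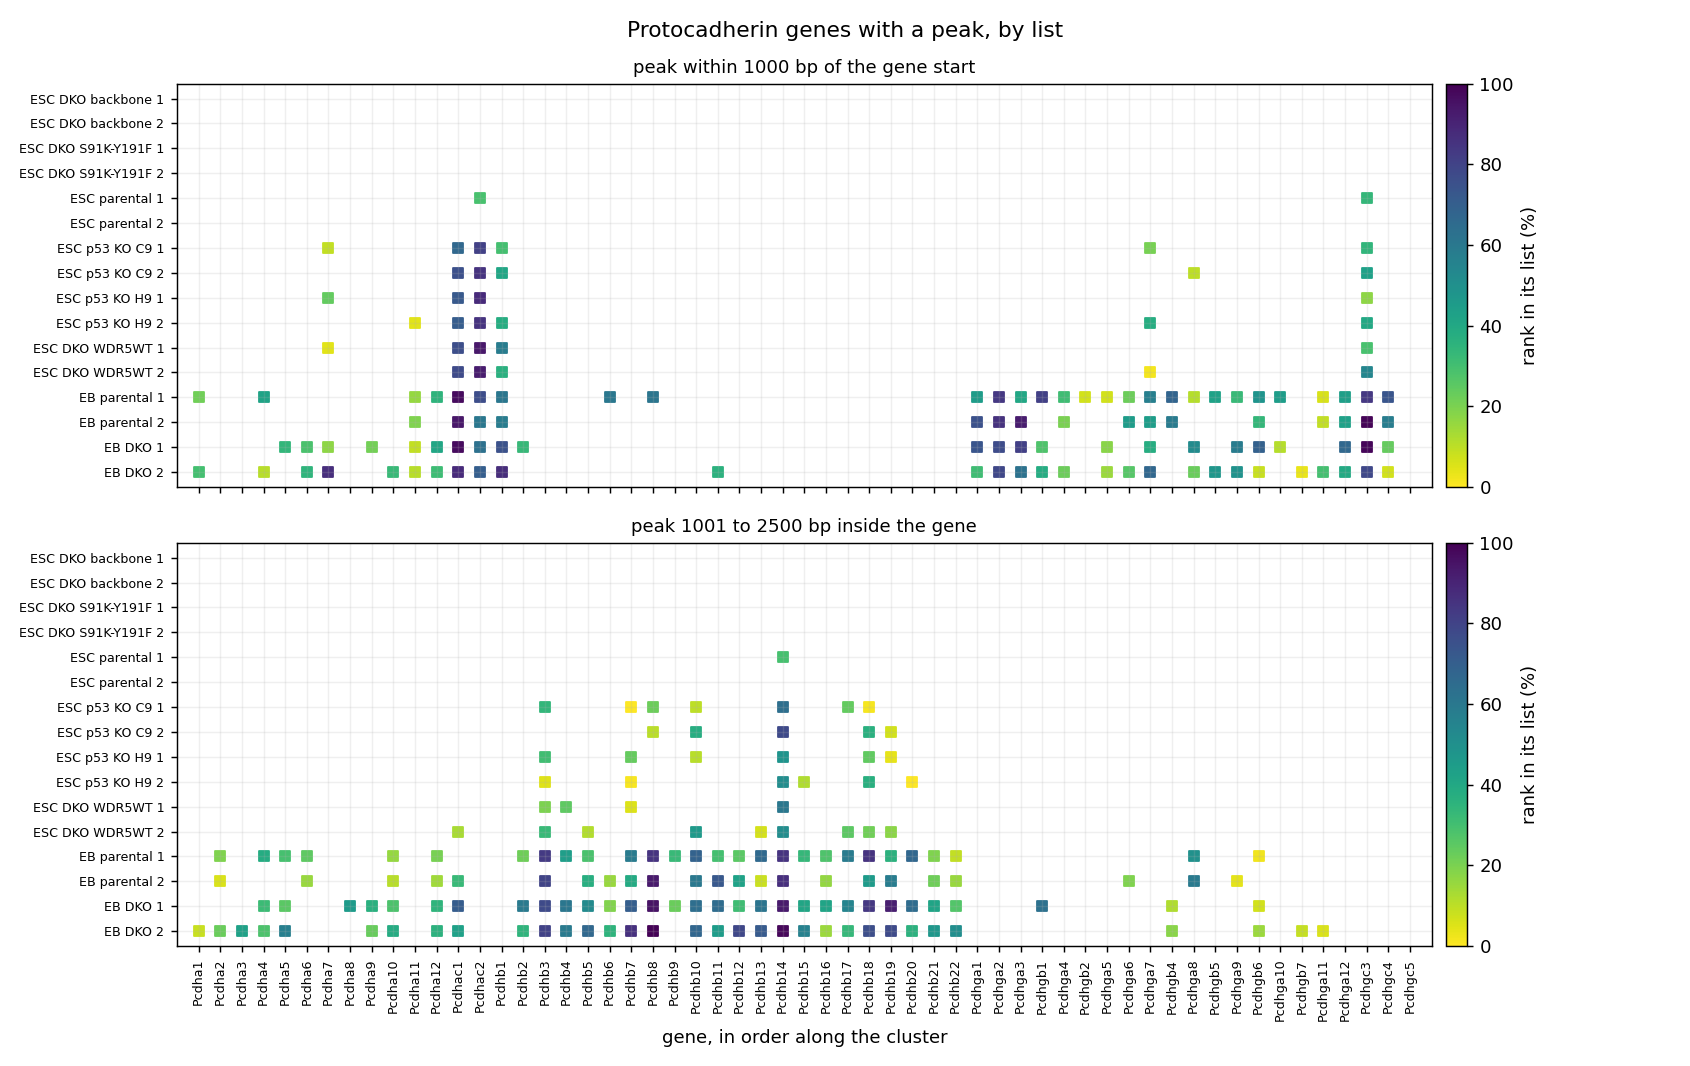
Columns are the 57 protocadherin genes in chromosome order and rows the 16 lists; the upper panel marks a peak within 1000 bp of the gene start, the lower panel one further inside, up to 2500 bp, and colour is the percent of the list's peaks at or below its value. The C-type genes Pcdhac1, Pcdhac2 and Pcdhgc3 are marked in the upper panel in all 6 C9, H9 and WDR5WT rows, the beta genes mainly in the lower panel, and the gamma genes mainly in the upper panel of the embryoid body rows.

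Peaks at the genes fell at 2 positions. A start peak is a peak whose midpoint lay within 1000 bp of the start, and an inner peak is a peak whose midpoint lay more than 1000 and up to 2500 bp inside the gene, where the variable exon of an alternate gene or the exon of a beta gene lies; these limits were set after the positions had been seen. No midpoint lay between 681 bp (a peak at Pcdha6) and 1353 bp (a peak at Pcdha3), so the split between start and inner peaks does not turn on the exact limit of 1000 bp. The limit of 2500 bp does matter at Pcdhga12, where midpoints lay from 2600.5 bp. That region (37767869 to 37768495) was in all 4 embryoid body lists and both WDR5WT lists and counts as neither kind. At the gamma alternate genes the 70 embryoid body peaks had a median midpoint 177 bp inside the gene and 77.1% were start peaks. At the beta genes the 88 embryoid body peaks had a median midpoint 2046 bp inside the gene, an interquartile range of 1900 to 2132 bp, and 90.9% were inner peaks. The alpha alternate genes had both, 19 start and 26 inner peaks of 45. The ESC lists give the summit of each peak, and at the beta genes the 42 ESC summits had a median 2169 bp inside the gene, with 88.1% in the inner zone. These counts and shares leave out peaks far from any start. Among those left out were peaks 6022.5 bp from the start of Pcdhb20 and 5766 bp from that of Pcdhga11. Peaks of 1 subcluster share sequence between paralogous genes, so reads can be placed at the wrong copy, and how multiply mapped reads were treated was not given in the sources used here.

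**Figure D4:**
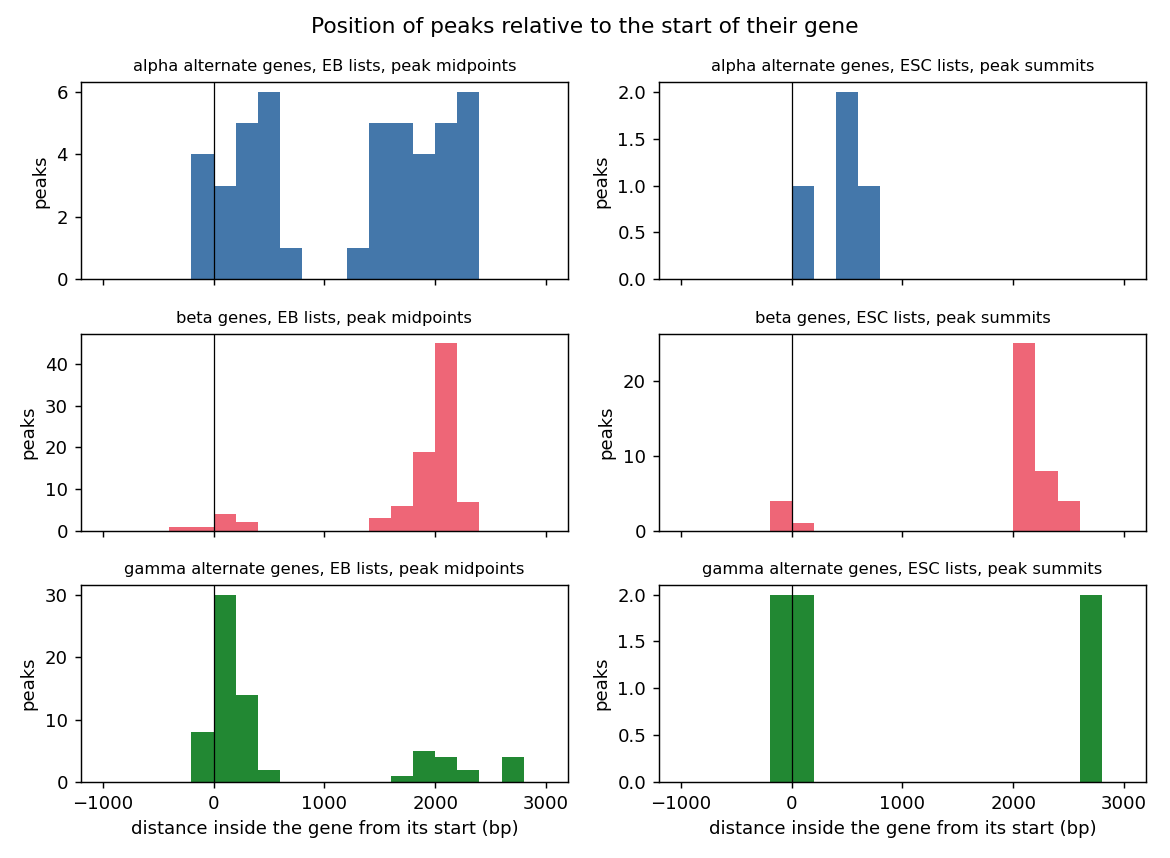
Histograms of the distance in bp from the gene start to the peak, with the number of peaks on the vertical axis, which differs between panels, for the alpha alternate, beta and gamma alternate genes in embryoid body lists (midpoints) and ESC lists (summits). Gamma peaks gather near the start (median 177 bp), beta peaks near 2046 bp, and alpha peaks at both positions.

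The C-type genes Pcdhac2 and Pcdhac1 had the 2 highest peaks of the window in 5 of the 6 C9, H9 and WDR5WT lists. The start of Pcdhac2 (37143308 to 37144901) was the highest peak of the window in all 6 C9, H9 and WDR5WT lists, with signals of 955 and 1169.5 in C9, 1504 and 1362 in H9, and 2008 and 2125 in WDR5WT. Its signal was at or above that of 80.8% to 93.7% of the peaks in its list. The first parental ESC list had it at 319.7, and the embryoid body lists at fold enrichments of 4.42 and 3.82 (parental) and 3.79 and 4.28 (DKO). Pcdhac1, its neighbour, had a start peak (37089636 to 37090848) in the same 6 ESC lists, with signals of 639 and 828 in C9, 848 and 831 in H9, and 982 and 1122 in WDR5WT, and it was second in the window in 5 of them, the inner peak of Pcdhb14 standing above it in the second C9 list. No parental, backbone or WDR5S91K-Y191F list had that peak. In embryoid bodies its fold enrichment was 6.68 and 5.96 (parental) and 6.02 and 5.28 (DKO).

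The 3 gamma C-type genes differed from each other. Pcdhgc3 had a start peak (37805978 to 37807163) in the first parental ESC list (348), in C9 (337 and 398), in H9 (261 and 396) and in WDR5WT (326 and 585). Its embryoid body fold enrichments were 4.90 and 7.53 (parental) and 6.55 and 4.62 (DKO). Pcdhgc4 had no start peak in the 12 ESC lists and 2 start regions in all 4 embryoid body lists. The first (37814264 to 37814689) was at 4.27 and 3.75 (parental) and 3.03 and 2.68 (DKO). The second (37814956 to 37815815) was at 3.82 and 3.69 (parental) and 2.85 and 2.76 (DKO). Both parental values were above both DKO values in each, though the lists were scaled separately and this was not tested. Pcdhgc5 had no start peak in the 16 lists. A region inside it (37822308 to 37823032) had a peak in the first parental ESC list (543), in all 6 C9, H9 and WDR5WT lists (242 to 558) and in all 4 embryoid body lists (3.47 to 4.08). Thus 3 of the 5 C-type genes had a start peak in all 6 of these ESC lists and 4 of the 5 in all 4 embryoid body lists. Over all genes, counting a peak at either end, the shares were 38.1% and 61.2%.

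The alpha alternate genes had the fewest shared peaks. A start peak in at least 1 embryoid body list was found at 9 of 12 genes, and in all 4 lists at Pcdha11 alone. Counting either end, 61.2% of all genes had a peak in all 4. An inner peak was found at 10 of 12, and in all 4 lists at Pcdha10 and Pcdha12. Start and inner peaks were both found at 7 genes, a start peak only at 2 and an inner peak only at 3. In ESC lists only Pcdha7 and Pcdha11 had a start peak, and no alpha alternate gene had an inner peak. Pcdha7 had its ESC peak in the first list of C9, H9 and WDR5WT each, at signals of 227, 293 and 214. Within each embryoid body list the median alpha start peak ranked below the median beta inner peak: it stood at the 28.4% and 19.3% rank of the parental lists and the 24.97% and 30.6% rank of the DKO lists, counted from the weakest peak. These medians rest on 4, 1, 6 and 8 peaks, and the start peak of Pcdha7 stood at the 87.0% rank of the second DKO list.

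The beta genes had an inner peak almost throughout. In embryoid bodies 21 of the 22 genes had one in at least 1 list and 14 had one in all 4; the genes are 2340 to 5271 bp long. The exception was Pcdhb1, the first and most separate beta gene, with a start peak (37264662 to 37265724) and no inner one. That peak had signals of 310.4 and 380 in C9, 383 in the second H9 list, and 598 and 396 in WDR5WT, and embryoid body fold enrichments of 3.76 and 3.76 (parental) and 4.15 and 5.21 (DKO). An inner peak was seen in at least 1 ESC list at 13 of the 22 genes. Pcdhb14 was the sole beta gene with one in all 6 C9, H9 and WDR5WT lists (37449354 to 37450197), with signals of 596 and 888 in C9, 466 and 504 in H9, and 634 and 551 in WDR5WT. The first parental ESC list had it at 322, and its embryoid body fold enrichments were 4.98 and 5.14 (parental) and 5.36 and 6.96 (DKO). Pcdhb3 and Pcdhb18 had an inner peak in 5 ESC lists and Pcdhb7 and Pcdhb10 in 4. At Pcdhb8 the inner peak had fold enrichments of 5.00 and 5.86 (parental) and 5.62 and 7.80 (DKO). The median beta inner peak stood at the 40.1% and 40.9% rank of the parental embryoid body lists and the 59.3% and 59.4% rank of the DKO lists, ranks that do not compare lists of unequal length.

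The gamma alternate genes had start peaks in embryoid bodies and almost none in ESCs. All 18 had a start peak in at least 1 embryoid body list and 6 in all 4: Pcdhga1, Pcdhga2, Pcdhga3, Pcdhga7, Pcdhga12 and Pcdhgb6. Over all genes, counting either end, a larger share, 61.2%, had a peak in all 4 of these lists. An inner peak as well was found at 8 of the 18, and no gene had an inner peak only. Pcdhga12 is not among the 8, since its region beyond the start lay just past 2500 bp. By type, 11 of 12 Pcdhga genes had the start peak in at least 3 of the 4 lists, and 2 of 6 Pcdhgb genes did, a difference that was not tested. In ESC lists only Pcdhga7 and Pcdhga8 had a start peak. Set beside the beta genes, where 1 gene had a start peak only, 17 an inner peak only and 4 both, the gamma genes had 10, 0 and 8, and no member of the alternate alpha, beta or alternate gamma genes lacked both kinds of embryoid body peak.

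Several regions of the window lay outside the starts. Between the start of Pcdhac2 and the shared upper end of the alpha genes, a region at 37178278 to 37178933 had fold enrichments of 6.91 and 6.54 (parental) and 4.68 and 6.06 (DKO) in embryoid bodies and a peak in the second C9 and both WDR5WT lists. A neighbour at 37172285 to 37172953 was in all 4 embryoid body lists and no ESC list. The gap between alpha and beta held a region at 37217330 to 37218550 at 5.12 and 5.93 (parental) and 4.67 and 5.41 (DKO), found in ESCs in the second H9 and both WDR5WT lists. The gap between beta and gamma held 4 regions, and 3 of these were in all 6 C9, H9 and WDR5WT lists. One of them (37643903 to 37644613) lay at the upper-coordinate end of Taf7, a general transcription factor gene. This region had signals of 395 to 553 in those 6 lists and 524 in the second WDR5S91K-Y191F list, and no peak in the 4 embryoid body lists. It was the 1 of the 8 regions shared by the 6 ESC lists that had no embryoid body peak, where 8.83% of such regions genome-wide had none. Another (37655405 to 37656085) was in the 6 ESC lists and in all 4 embryoid body lists at 4.10 to 4.84. The fourth (37630211 to 37631280) was found in the second WDR5S91K-Y191F list (433) and the first parental list (706) and in no other. Downstream of the gamma subcluster, within Diaph1, a formin gene, a region at 37852020 to 37852542 had 6.31 and 6.13 (parental) and 5.78 and 5.25 (DKO). The other protein-coding genes that overlap the window are Slc25a2, a mitochondrial carrier gene, and the gene models Gm37013, Gm38666 and Gm38667, which overlap protocadherin genes and cannot be told apart from them by peaks.

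The comparison of DKO with parental embryoid bodies asks whether loss of Wdr5 and p53 changed accessibility at these genes. Of the 108 window regions of the 4 lists, 7 had a peak in both DKO lists and neither parental list, or 6.48%, against 4.69% of all regions of the genome. In the reverse direction there were 5, or 4.63%, against 4.27%. Both shares were near those of the genome. All 4 lists had a peak in 40 of the 108, or 37.0%, against 28.4%. The share of peaks in the window was 0.0973% and 0.0918% in the DKO lists and 0.0862% and 0.0780% in the parental lists, a mean of 0.0946% ± 0.00387 against 0.0821% ± 0.00586 (SD, n = 2 each). The groups did not overlap, and a two-sided exact permutation test gave p = 0.33, the smallest that 2 against 2 libraries allow (0.6 after Benjamini-Hochberg adjustment over 6 comparisons). At equal list lengths the difference of 0.0125 became 0.00793.

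The regions found in DKO embryoid bodies only were at the starts of Pcdha6 (36967473 to 36967909) and Pcdha7 (36974002 to 36974549), inside Pcdha9 (36999681 to 37000233), Pcdhb6, Pcdhb8 and Pcdhgb4, and in the gap between beta and gamma. The gap region (37543789 to 37544231; 3.66 and 3.54 in DKO) overlapped a peak in the first parental ESC list (254.9) and in all 6 C9, H9 and WDR5WT lists (240.6 to 786). Those in parental embryoid bodies only were inside Pcdha6, at the start of Pcdhgb4 (37720228 to 37720562; 4.02 and 3.78), inside Pcdhga8, at Pcdhgc5 and in Diaph1. Pcdha6 and Pcdhgb4 thus appear in both sets, at 2 positions of the gene each. By start and inner peaks, 20 beta genes had an inner peak in both DKO lists and 14 in both parental lists, while 21 had one in at least 1 list of either group. By list, 20 and 15 beta genes had one in the parental lists and 21 and 20 in the DKO lists, so only the second parental list lay lower. The gamma alternate genes had a start peak in both lists at 10 genes in each group. The alpha alternate genes had a start peak in both lists at 4 (DKO) and 1 (parental), and in any list at 9 and 4. By list the alpha counts were 6 and 7 (DKO) and 4 and 1 (parental). Over all genes 62.8% (DKO) and 63.8% (parental) had an end peak in both lists, and the second parental list, with 75673 peaks, was the shortest of the 4; whether list length bears on these counts was not tested. At gene-specific ends, Pcdha6, Pcdha7 and Pcdhb22 were found in both DKO lists only, where 0.695% of all genes were. Pcdhgb4 was found in both parental lists only, against 0.818%. Pcdhb22 nonetheless had an inner peak in all 4 lists (37519708 to 37520608), at 2.70 and 2.88 (parental) and 3.09 and 3.69 (DKO). Its call thus rests on how near the peaks came to the gene end, not on a region found in DKO only. Leaving out a library loosens the call, so such counts tend to rise by construction. The count of DKO-only regions rose to 18 without DKO replicate 1, 14 without DKO replicate 2 and 21 without parental replicate 1. The parental-only count became 12 when parental replicate 2 was left out, and 10 when either parental replicate 1 or DKO replicate 2 was.

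In ESCs the p53 knockout clones were compared with the parental line, taking 4 libraries of 2 clones against 2. The window held 0.0535% to 0.0684% of the peaks in the knockout lists (mean 0.0595% ± 0.00674, SD, n = 4) and 0.0369% and 0% in the parental lists (mean 0.0185% ± 0.0261, SD, n = 2). All 4 knockout values were above both parental values, and the two-sided exact permutation test gave p = 0.067, the smallest possible (0.4 adjusted). The test permuted the 4 knockout libraries singly, though they come from 2 clones, so it does not measure the spread between clones. The parental lists differ from each other in length by more than the clones do (24367 and 5330 peaks), and without parental replicate 2 the difference was 0.0226. At equal list lengths it was 0.0188, and with the upper 50% of peaks by p 0.0235, with the same p. Of 29 window regions, 4 were in all 4 knockout lists and neither parental list (13.8%, against 11.9% genome-wide). These were the start of Pcdhac1, the inside of Pcdhb18, the upper-coordinate end of Taf7 and the region at 37655519 to 37656085. At equal list lengths, and with the upper 50% of peaks, the count was 1. None was in the parental lists only (2.44% genome-wide) and none in all 6 lists (7.13%). At gene-specific ends, Pcdhac1 alone was found in all 4 knockout lists and neither parental list (4.51% of all genes), and no member in the parental lists only (0.356%). The knockout-only count was 9 when parental replicate 1 was left out, and the parental-only count was 2 when replicate 2 was.

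The WDR5WT cells were compared with cells carrying the backbone plasmid. Of 26 regions 15 were in both WDR5WT lists and neither backbone list, or 57.7%, against 64.8% of all regions, none was in backbone lists only (2.19%) and none in all 4 lists (0.994%). At gene-specific ends 5 members were in WDR5WT only, where 43.7% of all genes were, and none in backbone only (0.219%). These were Pcdhac1, Pcdhac2, Pcdhb1 and Pcdhgc3, at their starts, and Pcdhb14, by its inner peak. The shares were 0.0604% and 0.0703% against 0% and 0% (two-sided exact permutation p = 0.33, the smallest possible, 0.6 adjusted). All lists were then cut to their 1535 strongest peaks, the length of the first backbone list. No WDR5WT-only region remained and the difference in share was 0. The highest window peak stood at only the 93.7% and 92.6% rank of the WDR5WT lists. It fell below the cut in both, so this outcome was set in advance and does not test the difference. Without WDR5WT replicate 1 the count was 23.

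The other ESC comparisons rested on still fewer peaks. For backbone against parental ESCs no region was in either group only, of 9 regions, where 0.43% (backbone) and 11.6% (parental) of all regions were, and none was in all 4 lists (3.51%). No member differed at a gene-specific end (0.0183% and 7.92% of all genes), and the exact permutation test gave p = 1 for a difference of -0.0185. The difference was 0 when parental replicate 1 was left out, and 9 regions were parental-only when replicate 2 was. For WDR5S91K-Y191F against backbone there was also none of 3 (15.6% and 0.408% genome-wide, and 5.74% in all 4 lists) and no member at a gene-specific end (8.32% of all genes in the mutant only, 0% in backbone only), with a difference of 0.00923 (exact permutation p = 1). Without WDR5S91K-Y191F replicate 1 there were 3 regions in the mutant only, and without replicate 2 the difference was 0. For WDR5WT against the p53 knockout clones, 1 of 32 regions was in WDR5WT only (3.13%, against 3.25%), near Pcdhga12 (37768004 to 37768431), none was in the knockout clones only (1.85%, and at gene-specific ends no member was in either only, against 1.14% and 0.119% of all genes), and 8 were in all 6 lists, 25% against 37.2%. The share differed by 0.00584 with overlapping groups (exact permutation p = 0.4, where 0.067 is the smallest possible), by 0.00950 at equal list lengths and by 0.0152 with the upper 50% of peaks. Leaving out 1 library gave up to 4 WDR5WT-only regions (4 without WDR5WT replicate 1, 2 without WDR5WT replicate 2, C9 replicate 2 or H9 replicate 2) and up to 1 knockout-only region (1 without WDR5WT replicate 2 or H9 replicate 2).

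Related genes outside the window were checked by peaks within 1000 bp of either end. Of 12 non-clustered protocadherin genes, 9 had one in all 6 C9, H9 and WDR5WT lists (38.1% of all genes) and 10 in all 4 embryoid body lists (61.2%), and Pcdh9 and Pcdh12 had none in any list. A set of 20 genes codes for factors known to act on protocadherin promoters and their loops. Of these, 12, among them Ctcf, had an end peak in all 6 ESC lists and 16 in all 4 embryoid body lists. Rad21, Nipbl and Dnmt3a had none in any list. No gene of the set was in only the DKO or only the parental embryoid bodies (0.695% and 0.818% of all genes). In ESCs, Ctcf, Stag2 and Rest were in the p53 knockout clones and not the parental line (4.51%), 10 of the 20 were in WDR5WT and not backbone (43.7%), and Smc3 was in the parental line (7.92%) and in WDR5S91K-Y191F (8.32%) and not in backbone. Among other gene clusters, the protocadherin window held 58.3 to 85.0 peaks per Mb in the embryoid body lists, the 4 Hox clusters 68.1 to 116.8, and the Ugt1a cluster, which like the alpha and gamma genes joins variable first exons to shared ones, 11.3 to 18.9. In the ESC lists the ranges were 0 to 22.7 for the protocadherin window, 0 to 30.5 for the Hox clusters and 0 to 56.7 for Ugt1a. The Ugt1a cluster had more peaks in the WDR5WT and H9 lists and the second C9 list than in any embryoid body list.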

How the data were processed

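ATAC-seq peak lists of 16 libraries (8 groups of 2) were used as deposited, 1 list per library; the submitters' processing notes name the build mm10, MACS2 2.1.2, Genrich 0.6, DESeq2, Bowtie2 2.3.5 and SAMtools, with no roles. Which caller made which list, read filters and depth were not given in the sources used here. The deposited ESC lists hold a score, a signal of unstated scaling and a −log10 p per peak with its summit. The deposited embryoid body lists hold a score, a fold-enrichment ratio, a −log10 p and a −log10 q. Depth is therefore unknown, and only presence of a peak, its place and its value within a list were used.

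Genes came from the RefSeq table of GRCm38.p6, the assembly behind mm10, without strand. Peaks on 21 chromosomes overlapping by at least 1 bp were merged. A region was called for a group when every library of it and none of the other had a peak. A gene-specific end was an end that no other protocadherin gene shares within 2000 bp, with a peak within 1000 bp. The percent of each list in the window was compared by two-sided exact permutation tests over libraries, p-values adjusted over 6 comparisons. Nothing shows that the libraries of a group came from separate cultures, so p-values measure only the spread between these libraries. Python 3.11.15 with numpy 2.4.6, pandas 2.3.3 and scipy 1.17.1 was used, and the calls were checked on simulated lists. Genes named individually had a peak at their own end, were in at least 8 lists or all 4 embryoid body lists, or met a group-only call, beside each list's highest window peak and the other genes of the window. The members and lists were chosen with earlier results of these data known, and the start and inner zones after peak positions had been seen. Alternatives were other merging and end distances, 100 kb flanks, equal list lengths, the upper 50% of peaks by p, a replicate block, and leaving out each library. No sequence of this chromosome is printed.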

Additional observations from a re-analysis of the deposited data

How the results depend on the processing

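No recomputed value changed sign. With lists cut to equal length, the difference in window share was 0 for backbone against parental, WDR5WT against backbone and WDR5S91K-Y191F against backbone, regions in WDR5WT only fell from 15 to 0, and those in p53 knockout clones only from 4 to 1. In the comparisons with backbone the cut was at 1535 peaks. No window peak ranked high enough to be kept there, so the difference of 0 was set in advance. With the upper 50% of peaks by p, there were 3 DKO-only regions in embryoid bodies, 1 knockout-only region, 3 in WDR5WT but not backbone and 0 in WDR5WT but not the knockout clones, 3 beta genes with an inner peak and 2 gamma alternate genes with a start peak in all 4 embryoid body lists, and 1 C-type gene with a start peak in all 6 ESC lists. With 100 kb flanks there was 1 region in WDR5S91K-Y191F only and there were 2 in WDR5WT but not the knockout clones. With a 2500 bp end window the genes with a peak were 10 and 13 in the H9 lists, 14 in the second WDR5WT list and 37 in the second parental embryoid body list. The upper 50% of peaks also gave differences in share of -0.00771 for backbone against parental and 0.00577 for WDR5S91K-Y191F against backbone. The cause was not tested, except that cut lists hold fewer peaks by construction.

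Leaving out 1 library gave differences in share of 0.00832 to 0.0166 for the embryoid bodies, 0.0226 to 0.0595 for p53 knockout against parental, -0.0369 to 0 for backbone against parental, 0.0604 to 0.0703 for WDR5WT against backbone, 0 to 0.0185 for WDR5S91K-Y191F against backbone and 0.000900 to 0.0108 for WDR5WT against the knockout clones. Regions in the first and second group only ranged from 8 to 21 and 5 to 12 for DKO and parental embryoid bodies, 4 to 9 and 0 to 2 for knockout and parental, 0 to 0 and 0 to 9 for backbone and parental, 15 to 23 and 0 to 0 for WDR5WT and backbone, 0 to 3 and 0 to 0 for WDR5S91K-Y191F and backbone, and 1 to 4 and 0 to 1 for WDR5WT and the knockout clones. Beta genes with an inner peak in all the embryoid body lists left numbered 14 to 19, gamma alternate genes with a start peak 6 to 10 (10 without parental replicate 2), and C-type genes 3 to 3. A call over fewer libraries is looser, so these counts of regions and genes tend to rise by construction.

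The replicate numbers are not stated to pair the libraries; the deviations of same-numbered libraries correlated at 0.00245 in embryoid bodies and between -0.201 and 0.220 in the ESC comparisons. With the replicate block the differences in share were 0.0125 for the embryoid bodies, 0.0411, -0.0185, 0.0654, 0.00923 and 0.00584 for the ESC comparisons in the order above, and no exact p was below 0.5, the smallest that 2 pairs allow. For WDR5S91K-Y191F against backbone, crossed pairing, chosen after seeing the data, gave an exact permutation p of 1, as the uncrossed block did. Joining peaks by 50% of the shorter peak was also chosen after seeing the data, since the planned wording could not change a call, as were the alternatives for the beta, gamma and C-type counts.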
